A study of Mus musculus with 42 samples.

Results

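The vascular endothelial growth factor (VEGF) family was followed through 9 genes of the 21674 read from the deposited table. They were taken by name as the ligands and receptors of the family, with earlier results of these data known, and comprised 4 ligands (Vegfa, Vegfb, Vegfc and Pgf), 3 receptors with a kinase domain (Flt1, Kdr and Flt4) and 2 neuropilins (Nrp1 and Nrp2). Their RNA was measured in 42 libraries, of which 33 formed 3 sets of flushes of the mouse carotid intima, the innermost layer of the artery, and are called the 33 carotid libraries below. The others were 2 low-flow pools of 100 bp reads from mice given PBS or clodronate liposomes and 7 cultures of aortic endothelial cells. In partial carotid ligation, branches of the left carotid are tied off. The ligated side then carries low flow, the contralateral carotid of the same mouse carries high flow, and a sham operation leaves normal flow.

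The untreated set comprised 3 pools each of low-flow, high-flow and sham intima at 48 hr, taken from male C57BL/6J mice of 6 to 7 weeks, each pool holding 3 to 5 flushes. The depletion set comprised 7 groups of 2 pools from mice of the same kind at 48 hr. Low-flow intima came from mice given anti-GPIba (50 µg, a platelet-depleting antibody), anti-Gr1 (25 µg, against granulocytes), control IgG, clodronate liposomes (150 µL, against macrophages) or PBS liposomes. High-flow intima came from mice given IgG or PBS liposomes, so that every mouse of this set had received an antibody or liposomes. The 7 d set came from mice of 2 to 7 months and both sexes. Rbfox2 EC-KO mice carried Rbfox2 lox/lox, the reporter Rosa26-mTmG and, as the inducible Cre, Cdh5(PAC)-CreERT2, in which the Cdh5 promoter limits the deletion to endothelial cells. Their littermate controls had Rbfox2 lox/lox and the same reporter but no Cre. There were 3 low-flow and 2 high-flow libraries of each genotype. The cultures, each with 1 library, were 4 of the immortalized TetOn-SV40 line of aortic endothelial cells (no addition, 10% plasma, macrophages plus platelets, or all 3 additions) and 3 primary ones (Rbfox2 EC-KO, Rbfox2 control and eGFP+ cells).

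VEGF-A, VEGF-B, VEGF-C and placental growth factor (PlGF, the product of Pgf) are secreted proteins that bind receptor tyrosine kinases on endothelial cells. VEGF-A acts through VEGFR2 (Kdr), the main receptor for endothelial growth and permeability, and also binds VEGFR1 (Flt1), which takes it up with high affinity and signals weakly. PlGF and VEGF-B bind Flt1 and not Kdr, VEGF-C binds VEGFR3 (Flt4) and is best known for the growth of lymphatic vessels, and Nrp1 and Nrp2 are co-receptors that also bind class 3 semaphorins.

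In the build of the files (mm9, NCBIM37) Vegfa lies at chr17:46153942-46169326 and Vegfb at chr19:7056963-7062141, both on the minus strand. Vegfc lies at chr8:55162886-55271808 on the plus strand and Pgf at chr12:86507589-86518246 on the minus strand. Among the receptors, Flt1 lies at chr5:148373180-148537587 and Kdr at chr5:76328852-76374483, both on the minus strand, and Flt4 at chr11:49422765-49466241 on the plus strand. Nrp1 lies at chr8:130882973-131029362 and Nrp2 at chr1:62749859-62865269, both on the plus strand. Reads were counted over the exons of each gene as a whole, so splice forms such as the soluble form of Flt1 were not separated.

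Pgf, Flt1 and Kdr had the largest differences between low and high flow among the genes of this family that were tested in untreated mice, and Vegfa differed the other way, so the promoters of these genes are shown. Each sequence runs from 250 bases before to 50 bases after a transcription start of RefSeq (GRCm38.p6, another build than that of the files), read on the minus strand. Capitals mark the core letters of the hypoxia response element, ACGTG or GCGTG on either strand (CACGT or CACGC when read on the other strand), the element that hypoxia-inducible factors bind in well-known VEGF family promoters.
Flt1, chr5:147725962-147726261: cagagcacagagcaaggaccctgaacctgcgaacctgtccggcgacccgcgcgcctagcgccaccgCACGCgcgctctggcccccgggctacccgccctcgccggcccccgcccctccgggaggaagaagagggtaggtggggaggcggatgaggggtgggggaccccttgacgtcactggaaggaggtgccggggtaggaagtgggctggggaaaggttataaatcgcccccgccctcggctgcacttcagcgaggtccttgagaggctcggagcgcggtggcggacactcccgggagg
Kdr, chr5:75978406-75978705: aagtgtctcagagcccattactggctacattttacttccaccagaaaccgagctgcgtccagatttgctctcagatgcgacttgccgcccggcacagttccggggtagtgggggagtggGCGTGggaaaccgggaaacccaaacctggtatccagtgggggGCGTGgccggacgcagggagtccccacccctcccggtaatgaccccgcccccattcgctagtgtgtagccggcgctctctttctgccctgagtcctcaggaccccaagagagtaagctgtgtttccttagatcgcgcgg
Pgf, chr12:85177264-85177563: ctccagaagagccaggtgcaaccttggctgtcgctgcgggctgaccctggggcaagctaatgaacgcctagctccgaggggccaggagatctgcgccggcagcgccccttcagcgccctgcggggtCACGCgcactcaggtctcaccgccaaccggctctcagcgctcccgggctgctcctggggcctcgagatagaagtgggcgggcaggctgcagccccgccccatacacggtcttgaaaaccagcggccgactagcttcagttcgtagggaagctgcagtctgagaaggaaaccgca
Vegfa, chr17:46032328-46032627: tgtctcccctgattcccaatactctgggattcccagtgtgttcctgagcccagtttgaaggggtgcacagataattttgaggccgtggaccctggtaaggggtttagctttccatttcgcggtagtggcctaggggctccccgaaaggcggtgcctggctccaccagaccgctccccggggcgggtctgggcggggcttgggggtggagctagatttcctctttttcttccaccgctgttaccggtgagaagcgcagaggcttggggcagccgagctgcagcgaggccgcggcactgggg

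Flt1 and Pgf each held 1 such core in this window, Kdr held 2 and the upstream start of Vegfa held none. A further RefSeq start of Vegfa, at chr17:46025114-46025413, held 2, and one of Pgf, at chr12:85175933-85176232, held 0. Of the 11 promoters of the 9 genes, 7 held at least 1 core, against 43.8% of 32851 mouse promoters searched in the same window. The GC box GGGCGG was found in 10 of the 11, against 35.7% of all promoters, and the CACCC letters of a KLF site in 10 of the 11, against 57.5%. The promoters of the family were rich in G and C, at 59.3% to 75.3% against a median of 52.7% over all promoters. TATAAA, found in 13.6% of all promoters, occurred in 1 of the 11, that of Flt1. Motifs were searched on both strands, and a match is a description of letters only.

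Levels are given as FPKM, which sets the count of a gene against its effective length and the total count of the library. Nrp1 had the highest mean of the 9 genes in every carotid group. Nrp2 had the lowest mean in every carotid group except untreated high flow, where Kdr was level with it, and had 0 counts in 4 of the 33 libraries and fewer than 3 counts in 8. The order of the other genes changed with flow and set. In untreated low flow, Pgf (mean 16.1 FPKM) and Flt1 (6.12) followed Nrp1 (65.1), with Flt4 at 3.23, Vegfc at 1.73, Vegfb at 1.20, Kdr at 1.16 and Vegfa at 0.323. In untreated high flow, Vegfc (3.91), Flt4 (3.68), Vegfb (3.44) and Flt1 (2.99) followed and Pgf was 6th of 9. In the depletion set Pgf stood 2nd in low flow with IgG, PBS liposomes, anti-Gr1 or clodronate, 7th after anti-GPIba and 8th in both high-flow groups. The ranges of Nrp1 and of the gene next below it did not overlap in any carotid group except low flow with PBS liposomes, whereas most neighbours lower in the order overlapped. The untreated pools held 4064477 to 6794904 counts of 100 bp reads, the depletion libraries 12286104 to 19035957 and the 7 d libraries 10318685 to 18633538, both of 150 bp reads. In 10 low-flow libraries of the depletion set, trimming 150 bp reads to 100 bp left the share of Vegfa in the counts at 0.960 to 1.05 of the untrimmed value. Vegfa had at most 1.89 FPKM in the untreated set and at least 4.28 in the others, and the cause of this gap was not tested. Levels were therefore not compared between sets.

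Markers of the tissue were checked first. All 11 endothelial markers, among them Cdh5 and Pecam1, were detected in every group, and their summed level in the untreated pools was lower on the ligated side (4797 to 5994 CPM, counts scaled to the library total, in low flow, 9938 to 11485 in high flow). The 14 macrophage markers summed to 2221 to 3362 CPM in low flow and 92.7 to 207 in high flow, and the markers of smooth muscle (2337 to 4339 against 578 to 681) and of dividing cells (507 to 1027 against 28.4 to 59.4) were also higher. Their part in the results below was not tested, and in these bulk flushes fewer cells of a type and less RNA per cell cannot be told apart. Rbfox2 itself, the deleted gene, had 0.169 to 1.09 FPKM in low-flow EC-KO libraries against 2.74 to 5.73 in their controls, and 0.791 and 1.05 against 3.66 and 3.84 at high flow.

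The first comparison set low against high flow in untreated mice. The placental growth factor gene and the receptors Flt1 and Kdr were higher in low-flow than in high-flow intima, and Vegfa was lower. Pgf had 6.30, 9.48 and 32.5 FPKM in the 3 low-flow pools, 1.81, 2.07 and 1.70 in the high-flow pools, and 3.83, 0.173 and 3.88 in the sham pools. Every low-flow pool was above every other pool. The difference between low and high flow was 11.9-fold (log2 fold-change 3.57 ± 0.38 SE, edgeR quasi-likelihood test, adjusted p = 3.7e-05).

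**Figure D1:**
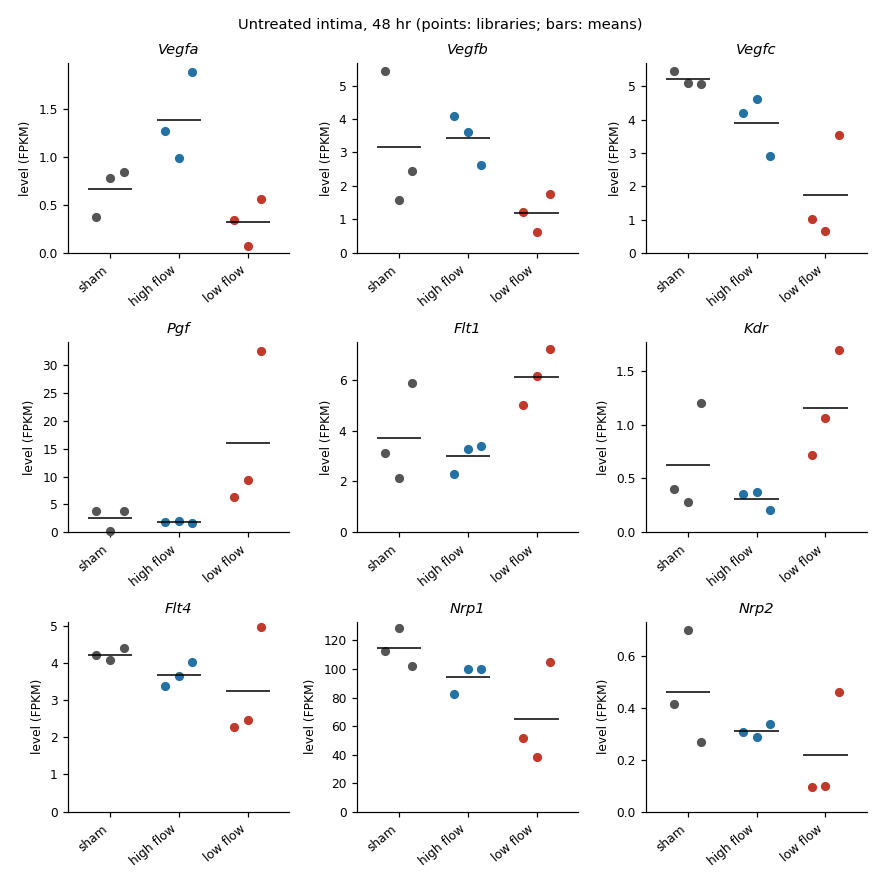
FPKM of the 9 genes in each untreated 48 hr pool on a linear axis, with 1 point per pool and a line at the group mean, for low flow, high flow and sham (n = 3 each). The low-flow pools of Pgf (6.30 to 32.5) lie above all high-flow and sham pools, and those of Vegfa (0.0715 to 0.557) below all high-flow pools (0.990 to 1.89).

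Among the receptors, Flt1 had 5.02, 6.14 and 7.21 FPKM in low flow and 2.30, 3.26 and 3.41 in high flow, with no overlap. On the scale of the fit, which uses TMM scaling of the libraries, it was 3.36-fold higher (log2 fold-change 1.75 ± 0.24, adjusted p = 0.000181). Kdr had 0.722, 1.06 and 1.69 FPKM in low flow against 0.354, 0.371 and 0.208 in high flow, again without overlap, and was 5.60-fold higher (2.49 ± 0.35, adjusted p = 0.000255). These Kdr levels rested on 25 to 51 counts per low-flow pool and 5 to 12 per high-flow pool. Flt4, which lymphatic and some blood endothelial cells express, had overlapping levels (2.27 to 4.96 in low flow, 3.38 to 4.02 in high flow) and did not pass the test (0.43 ± 0.18, adjusted p = 0.0719).

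The other ligands did not share the direction of Pgf. Vegfa had 0.341, 0.0715 and 0.557 FPKM in low flow against 1.27, 0.990 and 1.89 in high flow, from 1 to 10 counts against 17 to 27, and was 2.65-fold lower (log2 fold-change −1.41 ± 0.46, adjusted p = 0.0270). This call was not made by DESeq2 (adjusted p = 0.0755) or with scaling to the endothelial markers (−1.03, adjusted p = 0.166), and with 1 pool left out it was made in 2 of 6 fits (adjusted p 0.0285 to 0.106). Vegfb had 1.20 ± 0.58 FPKM in low flow and 3.44 ± 0.75 in high flow (SD, n = 3), without overlap, and did not pass the test (−0.84 ± 0.38, adjusted p = 0.0941). Vegfc had 1.73 ± 1.57 and 3.91 ± 0.89 FPKM and overlapped (adjusted p = 0.195). Nrp1, a co-receptor for VEGF-A, had 51.7, 38.6 and 105 FPKM in low flow against 82.8, 100 and 99.8 in high flow, with a log2 fold-change of 0.06 and a 95% interval of −0.49 to 0.62. Nrp2 had 2 to 12 counts per pool in these groups and was below the count filter.

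Of the 8 genes of the family that passed the filter, 3 were called higher and 1 lower. The background was high, since 46.2% of the 11236 genes tested were called at an adjusted p under 0.05, 23.6% higher and 22.6% lower. In FPKM, 12.2% of these genes were higher in every low-flow than every high-flow pool, and 39.4% were lower. The low-flow pools differed in composition, with up to 30.2% of their counts in 20 genes. When only library totals were used for scaling, the median of all genes moved to −0.69, Pgf (3.09) and Kdr (1.87) stayed called, Vegfa stayed lower (−2.04) and Flt1 (1.03) did not pass (adjusted p = 0.0751).

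The sham artery served as the normal-flow reference. Pgf was 8.49-fold higher in low flow than in sham (3.09 ± 0.62, adjusted p = 0.00675), Flt1 2.76-fold (1.46 ± 0.37, adjusted p = 0.0153) and Kdr 2.82-fold (1.49 ± 0.49, adjusted p = 0.0387). Vegfc had 1.02, 0.648 and 3.54 FPKM in low flow and 5.46, 5.10 and 5.07 in sham, every sham pool being higher, and was 1.98-fold lower (−0.99 ± 0.34, adjusted p = 0.0450). DESeq2 did not make the Vegfc call (−0.98, adjusted p = 0.0850), and scaling to library totals ended those of Flt1 (0.71, adjusted p = 0.247) and Kdr (0.86, adjusted p = 0.258). The Flt1 and Kdr pools overlapped those of sham in FPKM, since sham pool c had 5.88 FPKM of Flt1 and 1.20 of Kdr. These were 4 of the 6 family genes tested, against 40.3% of 11164 genes called. In FPKM, 7.49% of genes were higher in every low-flow than every sham pool, and 41.1% were lower. With 1 pool left out, the log2 fold-change of Kdr went up to 2.45 without sham pool c, the single fit of the 6 in which Kdr was called, and down to 1.16. In the family 1 call was left without low-flow pool a, low-flow pool b or sham pool a, 2 without sham pool b and 3 without low-flow or sham pool c, and Pgf passed in all 6 such fits. This comparison shares its low-flow pools with the preceding one. Vegfa, with a mean of 0.323 FPKM in low flow and 0.667 in sham, was below the count filter here. DESeq2 did not call it (log2 fold-change −0.36, adjusted p = 0.746), so a fall of Vegfa from the sham level was not detected.

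High flow was then compared with sham. No gene of the family was called by edgeR (7 tested, 1 at an unadjusted p under 0.05) or by DESeq2, where edgeR called 0% of 11030 genes and DESeq2 101 genes, with 868 at an unadjusted p under 0.05 in edgeR. Vegfa was the gene under 0.05, with 1.38 ± 0.46 FPKM in high flow and 0.667 ± 0.254 in sham (SD, n = 3), a log2 fold-change of 1.07 with an interval of 0.13 to 2.00 and an adjusted p of 0.545.

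The depletion set gave a further comparison of low and high flow, in mice that had received IgG or PBS liposomes. Pgf, Flt1 and Nrp2 were higher and Vegfa lower in low flow in both. The sequencing run was one for all low-flow libraries of this set and a later one for high flow, and so run and flow cannot be told apart here. With IgG, Pgf had 40.5 and 41.9 FPKM in low flow against 0 and 0.876 in high flow (log2 fold-change 6.40 ± 1.45, adjusted p = 0.00634). This size rested on the high-flow library at 0, since it was 5.44 without that library and 12.85 with it as the only high-flow library, where the fit sets the size and no fold can be read. With PBS liposomes it had 90.5 and 29.1 against 0.557 and 3.64 (4.95 ± 1.28, adjusted p = 0.0127), with 3.90 to 6.84 when 1 of the 4 libraries was left out and the call made in 2 of these fits. Neither pair of groups overlapped.

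**Figure D2:**
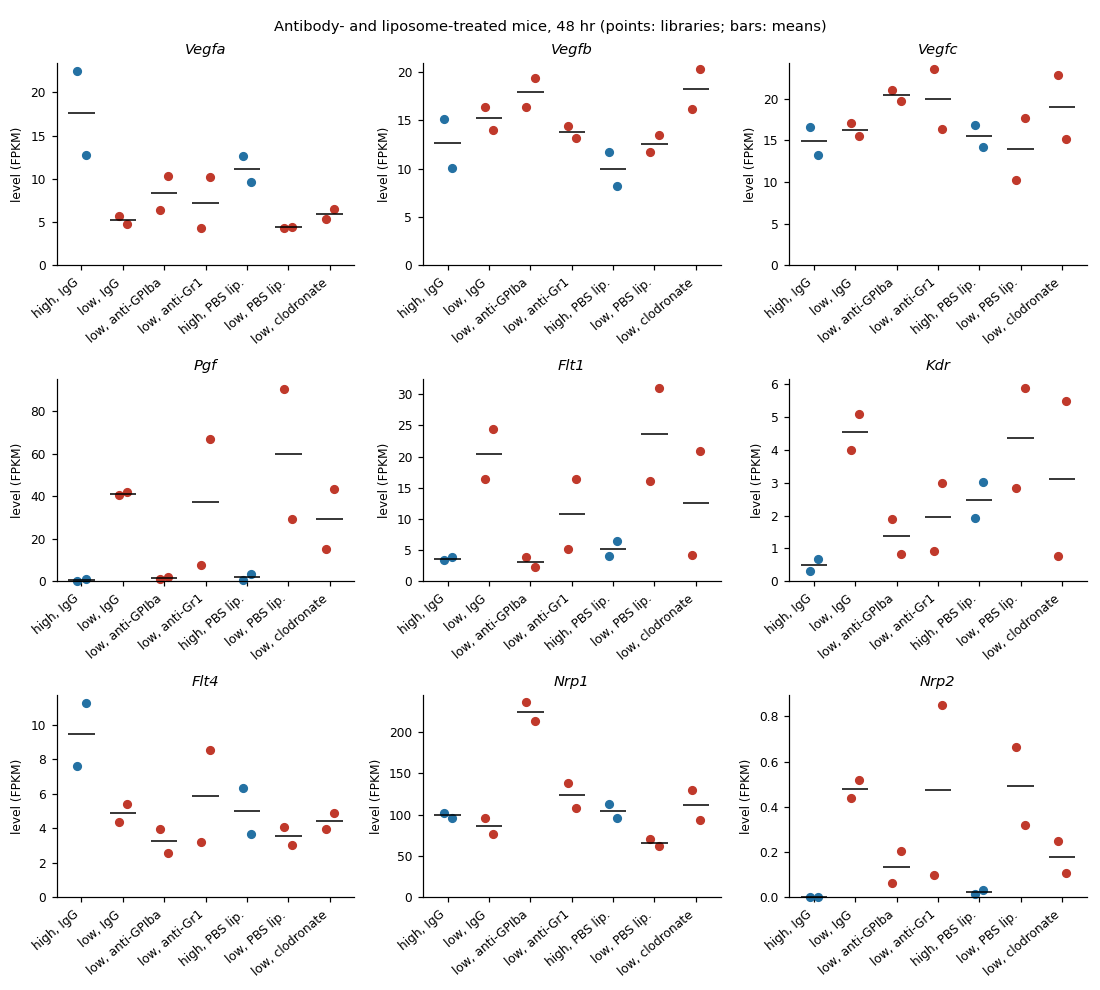
FPKM of the 9 genes in each of the 14 depletion libraries at 48 hr on a linear axis, with 1 point per library and a line at the mean of each group of 2. Pgf and Flt1 are low in the 2 anti-GPIba libraries (Pgf 0.874 and 2.17) compared with low flow with IgG (40.5 and 41.9), and 1 library each of the anti-Gr1 and clodronate groups also lies below the controls.

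Flt1 had 16.3 and 24.4 FPKM in low flow against 3.38 and 3.86 in high flow with IgG (2.41 ± 0.72, adjusted p = 0.0217), and 16.1 and 31.0 against 3.99 and 6.51 with PBS liposomes (2.27 ± 0.72, adjusted p = 0.0298). Kdr was 8.38-fold higher with IgG (4.01 and 5.10 FPKM against 0.322 and 0.693, adjusted p = 0.0207), and without high-flow library 2 its log2 fold-change went from 3.07 to 3.77 (adjusted p = 0.0536). With PBS liposomes Kdr overlapped (2.84 and 5.87 against 1.92 and 3.03), and the interval of its log2 fold-change ran from −0.90 to 2.75. Flt4 had 4.37 and 5.43 FPKM in low flow against 7.61 and 11.3 in high flow with IgG, lower in both low-flow pools without passing the test (−1.03, adjusted p = 0.0961). The receptor mix differed accordingly. Flt1 made up 66.1% to 69.9% of the summed FPKM of the 3 kinase receptors in low flow with IgG and 24.4% to 29.9% in high flow, where Flt4 was the largest. With PBS liposomes Flt1 made up 70.0% and 77.7% in low flow and 32.6% and 49.3% in high flow, where Flt4 was the largest in library 1 (51.7%) and Flt1 in library 2.

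Vegfa had 5.64 and 4.78 FPKM in low flow against 22.5 and 12.8 in high flow with IgG, 3.57-fold lower (−1.83 ± 0.43, adjusted p = 0.00749). With PBS liposomes it had 4.33 and 4.44 against 12.6 and 9.58, 2.34-fold lower (−1.23 ± 0.43, adjusted p = 0.0438). In both, every low-flow pool was below every high-flow pool. Vegfb (15.2 ± 1.7 FPKM in low flow with IgG and 12.6 ± 3.6 in high flow, SD, n = 2) and Vegfc (15.5 to 17.1 and 13.3 to 16.6) overlapped, with adjusted p values of 0.634 and 0.926.

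The neuropilins differed from each other. Nrp2 was at 0 counts in both high-flow libraries with IgG and had 33 and 45 counts in low flow, at least 8.94-fold higher when 3 counts per library were taken as the floor (adjusted p = 0.00799). With PBS liposomes it had 0.665 and 0.321 FPKM in low flow and 0.0159 and 0.0312 in high flow, from 1 and 2 counts (adjusted p = 0.0231). Nrp1 was lower in low flow in both, at 95.5 and 76.4 against 102 and 96.2 FPKM with IgG and 71.0 and 61.5 against 113 and 96.3 with PBS liposomes, without passing the test (adjusted p = 0.302 and 0.0749).

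With IgG, 5 of the 9 genes were called (4 higher, 1 lower), against 40.5% of 13401 genes. With PBS liposomes 4 were called (3 higher, 1 lower), against 35% of genes. Groups of 2 libraries often did not overlap. In FPKM, 42.7% of genes were higher in both low-flow than in both high-flow libraries with IgG, and 31.4% were lower. With PBS liposomes these shares were 36.5% and 38.9%. With IgG, 2 calls were left without high-flow library 1 or low-flow library 2, 3 without high-flow library 2 and 5 without low-flow library 1, and Pgf passed in all 4 fits. With PBS liposomes 0 were left without high-flow library 1 and 1 without any of the other libraries. The endothelial markers summed to 5222 to 6009 CPM in low flow with IgG and 14954 to 15077 in high flow. When the libraries were scaled to these markers instead, the median of all genes moved to 1.58 with IgG and 1.23 with PBS liposomes. Vegfa then no longer passed in either (−0.34 and −0.04, both below that median), and Nrp1 turned and was called higher in low flow in both (1.21, adjusted p = 0.00081, and 0.64, adjusted p = 0.0327, also below that median), while Pgf (7.91) and Flt1 (3.94) with IgG passed and lay above it.

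The platelet comparison asked what low-flow intima expresses after anti-GPIba. Pgf and Flt1 were lower and Nrp1 higher than after IgG, at the same flow and in the same sequencing run. Pgf had 0.874 and 2.17 FPKM with anti-GPIba against 40.5 and 41.9 with IgG, 27.5-fold lower (−4.78 ± 1.27, adjusted p = 0.0342), with −5.58 without anti-GPIba library 2 and −4.27 at the other end of the fits with 1 library left out. Flt1 had 3.96 and 2.34 against 16.3 and 24.4, 6.62-fold lower (−2.73 ± 0.73, adjusted p = 0.0346). The group means were 1.52 FPKM of Pgf and 3.15 of Flt1 with anti-GPIba, against 0.438 and 3.62 in high flow with IgG. Those high-flow libraries came from a later sequencing run, and no test was made against them.

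Nrp1 had 236 and 213 FPKM with anti-GPIba, the highest of the 14 depletion libraries, against 95.5 and 76.4 with IgG (2.56-fold, 1.35 ± 0.22, adjusted p = 0.0143). Kdr (1.90 and 0.835 against 4.01 and 5.10), Flt4 (3.96 and 2.59 against 4.37 and 5.43) and Nrp2 (0.0622 and 0.207 against 0.440 and 0.519) were lower in both anti-GPIba libraries without passing the test (adjusted p = 0.155, 0.356 and 0.228). In FPKM, 38.4% of all genes tested were lower in both anti-GPIba than in both IgG libraries, and 35.9% were higher. Vegfa was 6.42 and 10.3 against 5.64 and 4.78 FPKM, with an interval of the log2 fold-change of −0.27 to 1.58.

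The 3 calls among 9 genes stood against 16.5% of genes called. All 3 were lost whichever of the 4 libraries was left out, with adjusted p values of 0.0504 to 0.210 for these genes, while their directions held, and Flt1 was also lost when only the low-flow groups were fitted. The anti-GPIba libraries also differed in their markers. Macrophage markers summed to 273 to 364 CPM against 2280 to 2505 with IgG, smooth muscle markers to 802 to 1102 against 4420 to 4763, markers of dividing cells to 18.8 to 26.3 against 879 to 1483, and endothelial markers to 10101 to 10271 against 5222 to 6009. Their part in the result was not tested. Scaled to the endothelial markers, where the median of all genes was −0.87, Pgf (−5.61), Flt1 (−3.58), Kdr (−2.62) and Flt4 (−1.46, adjusted p = 0.0302) passed and Nrp1 (0.53, adjusted p = 0.0806) did not.

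Anti-Gr1 and clodronate gave no calls in the family by edgeR or DESeq2, with 1 of 9 genes at an unadjusted p under 0.05 in each, Nrp1. After anti-Gr1, edgeR called 0% of genes and DESeq2 142 genes, with 2432 at an unadjusted p under 0.05 in edgeR. After clodronate, 16 genes (0.119%) were called. The libraries of these groups did not behave alike. Pgf had 7.52 and 66.8 FPKM after anti-Gr1 and 15.3 and 43.3 after clodronate, Flt1 5.19 and 16.4, and 4.30 and 20.8, and Kdr 0.919 and 2.98, and 0.757 and 5.48. In each group 1 library held the low values of all 3 genes and the other had higher values, and the intervals were wide, from −2.42 to 2.23 for the log2 fold-change of Pgf after anti-Gr1 and −3.48 to 1.23 after clodronate. Macrophage markers summed to 293 to 300 CPM after clodronate and to 1387 to 2273 with PBS liposomes. A link between these markers and Pgf was not tested. Nrp1 had 138 and 108 FPKM after anti-Gr1 (adjusted p = 0.258) and 130 and 93.2 after clodronate (adjusted p = 0.257), above both controls in each case. Of all genes tested, 21.1% were above both controls in both anti-Gr1 libraries and 30.5% in both clodronate libraries.

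**Figure D3:**
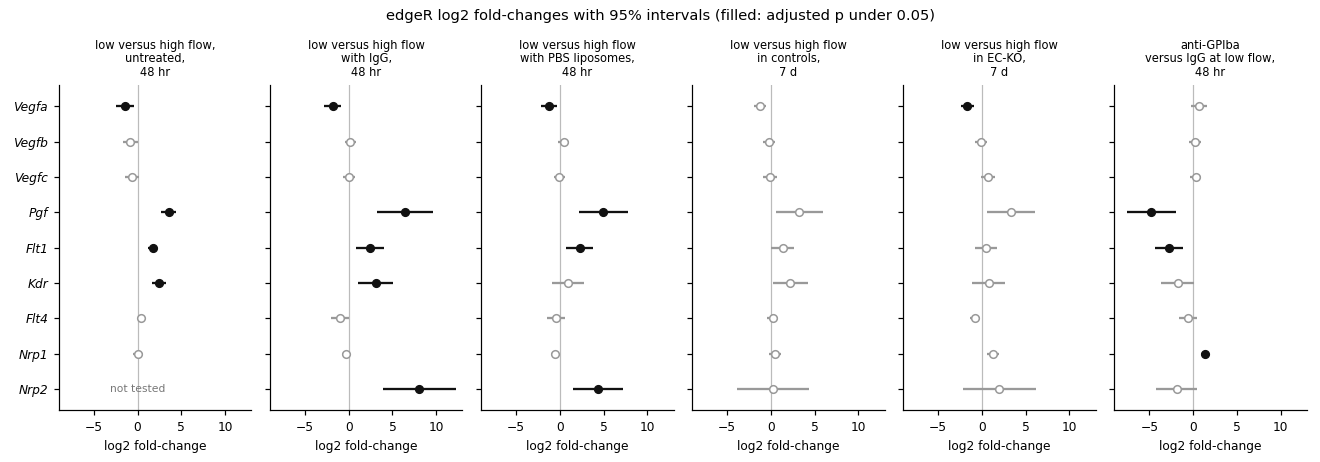
Log2 fold-change of each gene with its 95% interval in 6 comparisons, the 5 of low against high flow and that of anti-GPIba against IgG at low flow. Filled points have an adjusted p under 0.05 in edgeR. Pgf, Flt1 and Kdr lie to the right of 0 in the flow comparisons and to the left with anti-GPIba, and Vegfa lies to the left in all 5 flow comparisons.

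At 7 d the study compared Rbfox2 EC-KO mice with littermate controls, at each flow. In low flow, Flt1 had 6.47, 10.4 and 13.7 FPKM in EC-KO and 6.08, 34.9 and 15.4 in controls, Kdr 1.04, 4.94 and 3.67 against 1.54, 15.7 and 6.43, and Pgf 1.58, 9.85 and 5.97 against 1.48, 14.5 and 21.1. All 3 overlapped between genotypes. Flt4 was the gene without overlap, at 8.02, 8.97 and 7.16 FPKM in EC-KO against 9.27, 17.6 and 13.1 in controls, with a log2 fold-change of −0.70 (interval −1.25 to −0.15) that did not pass adjustment (adjusted p = 0.692). Of all genes tested, 4.37% were lower without overlap in EC-KO and 3.54% were higher. No gene of the family was called by edgeR or DESeq2. Over all 13352 genes 0% were called, with 880 at an unadjusted p under 0.05 and 11 called by DESeq2.

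The low-flow libraries numbered 1, of either genotype, stood apart, with Pgf at 1.48 and 1.58 FPKM and Flt1 at 6.08 and 6.47, close to high flow. They were read in an earlier sequencing run than most of this set. Without control library 1, Flt1 (−1.29, adjusted p = 0.0493), Flt4 (−0.92, adjusted p = 0.0236) and Nrp1 (0.80, adjusted p = 0.0488) passed between genotypes. With both libraries numbered 1 left out, none did, and Flt4 had an adjusted p of 0.0662.

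At high flow the genotypes did not differ detectably in any of the 9 genes (0 called by edgeR or DESeq2, 0 at an unadjusted p under 0.05, against 0.00749% of genes called). The intervals were narrowest for Flt4 (−0.40 to 0.95) and Nrp1 (−0.97 to 0.47). Pgf was at or below 1.48 FPKM in all 4 high-flow libraries of this set.

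**Figure D4:**
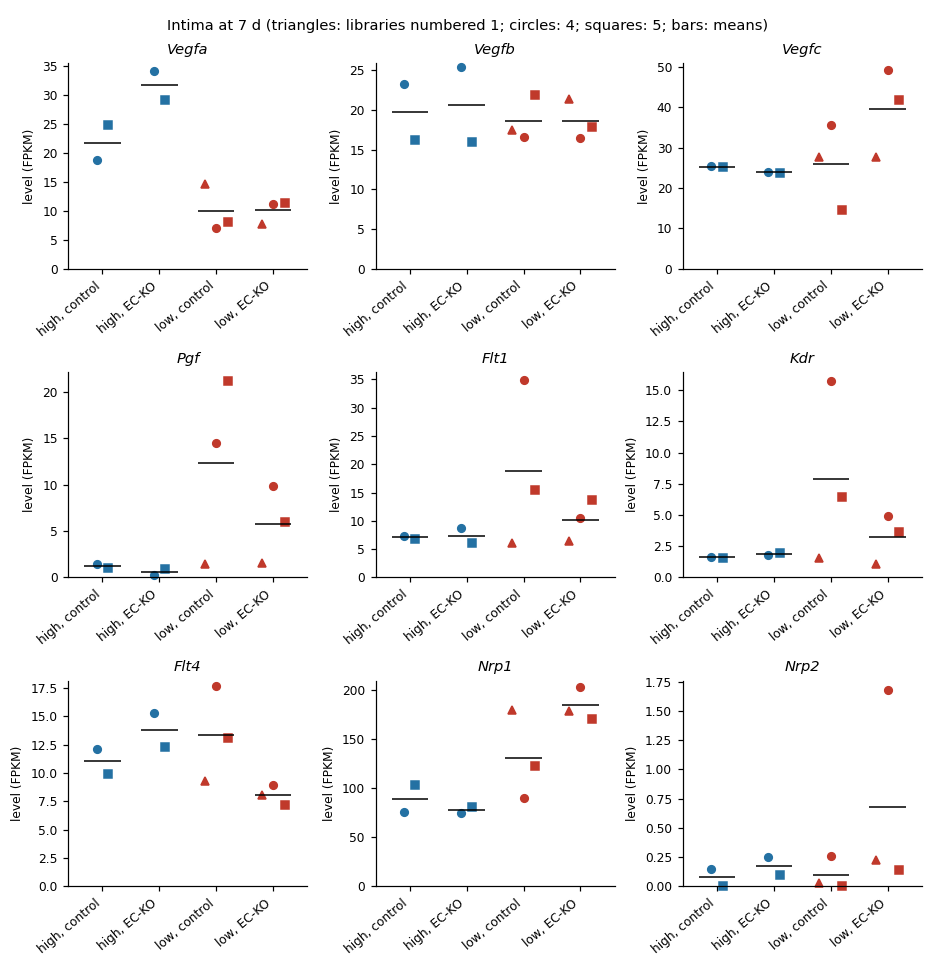
FPKM of the 9 genes in the 10 libraries at 7 d on a linear axis, with 1 point per library (triangles for number 1, circles for 4, squares for 5) and a line at the group mean, for high and low flow in controls and EC-KO. The low-flow libraries numbered 1 lie near the high-flow libraries for Pgf (1.48 and 1.58) and Flt1 (6.08 and 6.47), and Vegfa is lower in all 6 low-flow libraries than in all 4 high-flow libraries.

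The effect of flow at 7 d was taken within each genotype. In controls, Vegfa had 14.6, 6.96 and 8.03 FPKM in low flow against 18.7 and 24.8 in high flow (−1.23 ± 0.32, adjusted p = 0.0631). In EC-KO it had 7.73, 11.2 and 11.3 against 34.1 and 29.1 and was called (3.16-fold lower, −1.66 ± 0.32, adjusted p = 0.0444). Low flow was below high flow in every library of both genotypes. The same held for 15.6% of the genes tested in controls and 22.5% in EC-KO, and the reverse for 24.1% and 21.1%. The endothelial markers summed to 5620 to 9099 CPM in low flow and 13279 to 13455 in high flow in controls, and to 7626 to 8382 and 13746 to 13810 in EC-KO. Scaled to these markers, Vegfa was not called in controls (−0.21, adjusted p = 0.550, median of all genes 1.13) or in EC-KO (−0.88, adjusted p = 0.0660, median 0.79). Pgf was higher in every low-flow than high-flow library in EC-KO, while in controls low-flow library 1 (1.48 FPKM) was level with high-flow library 4 (1.48). Its log2 fold-changes were 3.25 in controls and 3.32 in EC-KO, with adjusted p values of 0.130 and 0.226 in edgeR, while DESeq2 called Pgf in both (adjusted p = 0.0132 and 0.0226). With 1 library left out, the edgeR values of Pgf ran from 2.56 to 3.78 in controls and from 2.61 to 4.70 in EC-KO.

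In controls no gene of the family was called by edgeR (3 at an unadjusted p under 0.05, 2.4% of genes called), while DESeq2 called 3. Without control library 1, edgeR called 4: Pgf (3.78, adjusted p = 0.0137), Flt1 (1.76, adjusted p = 0.0116), Kdr (2.70, adjusted p = 0.0152) and Vegfa (−1.60, adjusted p = 0.00233). In EC-KO 1 gene was called, against 1.09% of genes, and that call was lost whichever library was left out. Nrp1 had 179, 204 and 171 FPKM in low flow against 74.7 and 81.2 in high flow in EC-KO (1.23 ± 0.31, adjusted p = 0.0973), and 180, 89.6 and 123 against 75.3 and 104 in controls (0.45 ± 0.30, adjusted p = 0.372). The difference of the flow effect between genotypes was tested directly and called for no gene (0% of genes by edgeR, 538 at an unadjusted p under 0.05, 21 by DESeq2), and its interval ran from −1.84 to −0.10 for Flt4 and from −4.07 to 1.17 for Kdr.

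The mix of ligands summarizes these levels within each library. Pgf made up 71.0% to 87.6% of the summed FPKM of the 4 ligands in untreated low-flow pools, 16.0% to 18.6% in high flow and 2.26% to 31.7% in sham. It made up 50.9% to 55.0% in low flow with IgG, 0% and 2.37% in high flow with IgG, and 1.95% and 4.21% after anti-GPIba. With PBS liposomes it was 77.5% and 45.1% in low flow and 1.34% and 10.2% in high flow, and in low flow it was 15.1% and 62.7% after anti-Gr1 and 25.6% and 50.7% after clodronate, the 2 libraries of each group being far apart. At 7 d its share was 2.41%, 19.6% and 32.2% in low-flow controls and 2.71%, 11.4% and 7.76% in low-flow EC-KO. In the high-flow libraries of the IgG and 7 d groups, Vegfa, Vegfb and Vegfc made up nearly all of the sum.

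**Figure D5:**
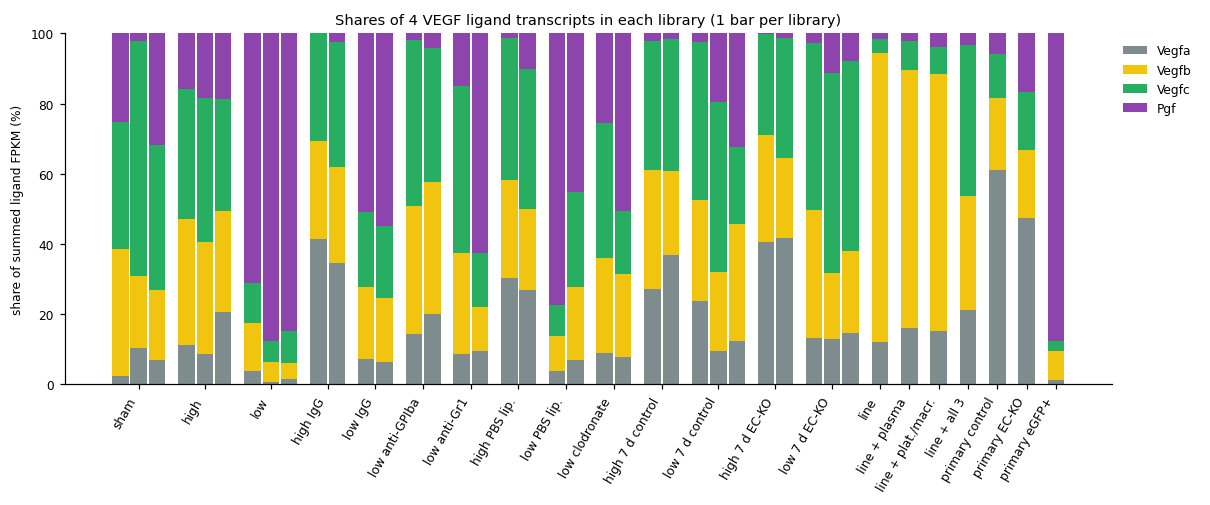
Share of each ligand in the summed FPKM of Vegfa, Vegfb, Vegfc and Pgf, in percent, with 1 stacked bar per library. Pgf fills 71.0% to 87.6% of the bar in untreated low flow and 1.95% to 4.21% after anti-GPIba, and Vegfb fills most of the bar in 3 of the 4 cell line cultures.

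In culture each condition had 1 library, so values are given with exact 95% Poisson intervals, which cover counting error only, and no test was made. The TetOn-SV40 line had few endothelial transcripts, with its endothelial markers summing to 333 to 423 CPM against 5037 and 5482 in the primary cells sorted for CD31 and Icam2. Flt1 was near the floor in the line, at 0.0667 FPKM (0.0245 to 0.145, 6 counts) untreated and at most 0.210, whereas the primary control culture had 21.9 (20.9 to 22.8). Kdr was 0.207 to 0.376 FPKM in the line and 9.50 (8.82 to 10.2) in the primary control culture. Vegfb was the leading ligand of the line untreated, at 88.3 FPKM (83.8 to 93.1), and in every other culture of it except that with all additions, where Vegfc led.

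The line was left untreated or kept for 48 hr with additions, which were 10% plasma, platelets together with macrophages, or plasma, platelets and macrophages at once. Vegfc was 4.40 FPKM (3.62 to 5.29) untreated, 6.88 (5.88 to 8.01) with platelets and macrophages, 7.66 (6.60 to 8.85) with plasma and 48.4 (45.8 to 51.0) with all. Vegfa was 12.8 (11.8 to 13.8), 13.5 (12.5 to 14.7), 15.0 (13.9 to 16.2) and 23.7 (22.4 to 25.1) in the same order, and Vegfb 88.3, 65.7, 69.5 and 36.5. Vegfc and Vegfa were thus highest and Vegfb lowest in the culture that held all additions, and Pgf stayed between 1.58 and 3.60 FPKM. Added macrophages and platelets were lysed with the line, and macrophage markers summed to 327 CPM in the culture with all additions, 433 with platelets and macrophages and 61.6 untreated. Their part in these values was not tested.

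Among primary cultures, the Rbfox2 EC-KO cells had 57.9 FPKM of Vegfa (55.3 to 60.6) and the control cells 65.3 (63.0 to 67.7). Pgf was 20.2 (17.9 to 22.7) in EC-KO and 6.27 (5.24 to 7.44) in control cells, and Nrp2 1.90 (1.52 to 2.35) and 4.17 (3.69 to 4.69). Flt1 (22.7 and 21.9) and Kdr (8.96 and 9.50) had overlapping intervals. The eGFP+ primary cells, sequenced with 100 bp reads, had Pgf as the highest gene of the family at 130 FPKM (122 to 139), above Nrp1 at 69.3 (66.3 to 72.5). The pair of liposome pools of 100 bp reads at low flow had Pgf at 40.3 (PBS) and 44.8 (clodronate) and Flt1 at 15.1 and 10.4 FPKM.

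For each gene the genes with the most similar pattern were found by Pearson correlation of log2(FPKM + 0.5) over the 33 carotid libraries, as a description, since the libraries share read length and depth within a set. Among the genes closest to Pgf were Polr1e (r = 0.933) and Hbegf (0.925), a growth factor of the EGF family. Hbegf stayed among its closest genes (0.941) when values were centred within each set. Vegfa was closest to Pde8a (0.976), Vegfb to Mosc2 (0.961), Vegfc to Sox7 (0.967), Flt1 to Pus1 (0.932), Kdr to Mre11a (0.921), Flt4 to Kdm5c (0.924), Nrp1 to Dcn (0.873) and Nrp2 to Fosl2 (0.763). None of the 3 closest genes of Vegfb, Vegfc, Flt1 and Kdr stayed among the closest after centring. Within the family and after centring, Flt1 and Kdr (r = 0.887) and Pgf and Flt1 (0.837) went together most closely, and Vegfa and Pgf (−0.686) were the most opposed.

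Other genes of the pathway were taken from lists by role. Of 23 genes known to be induced by VEGF, 17 were tested in untreated low against high flow, and 7 were higher and 4 lower, where 23.6% of all genes were called higher and 22.6% lower (median log2 fold-change 0.14 against −0.07 over all genes). Angpt2, the ligand that antagonizes Tie2, had 144 ± 38.9 FPKM in low flow and 1.14 ± 0.40 in high flow (SD, n = 3, log2 fold-change 7.73, adjusted p = 2e-06). Esm1 (46.4 ± 16.1 against 0.642 ± 1.11), a marker of endothelial tip cells, and Apln (2.75 ± 0.69 against 0.0364 ± 0.0631), the apelin gene, also rose. Spry2, Spry4 and Klf10 fell, with log2 fold-changes of −2.03, −1.80 and −1.74, the Sprouty genes being inhibitors of receptor kinase signalling. With IgG 9 of this list were higher and 2 lower (22.8% and 17.7% of all genes), and with PBS liposomes 8 and 2 (19.6% and 15.5%). After anti-GPIba none was higher and 7 were lower (6.05% and 10.5% of all genes), with a median of −2.11, Angpt2 going from 172 ± 60.7 to 10.3 ± 1.27 FPKM (SD, n = 2, −4.10, adjusted p = 0.0263). At 7 d in controls Angpt2 had 22.0 ± 3.8 FPKM in low flow (SD, n = 3) and 1.89 ± 1.32 in high flow (SD, n = 2, adjusted p = 0.0301).

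Of 24 receptor partners, 22 were tested in untreated mice and 6 were higher and 5 lower, near the shares over all genes (23.6% and 22.6%). The receptor-type phosphatases Ptprj (2.35 ± 2.04 FPKM in low flow, 31.7 ± 8.6 in high flow) and Ptprb, known as VE-PTP (18.4 ± 15.5 and 122 ± 19.5), fell by 3.22 and 2.26 on the log2 scale, and the semaphorin gene Sema3f, whose product binds Nrp2, fell by 1.91. Itgb3 (2.33), the phosphatase gene Ptpn1 (1.75) and Stx6 (1.02) rose. Ptprj, Ptprb and Sema3f also fell in low flow with IgG and with PBS liposomes, and Ptpn1 and Stx6 rose there. After anti-GPIba Ptpn1 fell by 1.08 (adjusted p = 0.0211).

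Of 44 genes of the signalling cascade, 40 were tested and 3 were higher and 12 lower in untreated mice, with a median of −0.29, against 23.6% and 22.6% of all genes. Prkcb, Prkcd and Cdc42 rose by 1.72, 1.71 and 1.03 on the log2 scale. Nos3, the endothelial nitric oxide synthase, had 11.9 ± 6.3 FPKM in low flow and 44.3 ± 2.05 in high flow and fell by 1.29, and Nck1 fell by 1.61 and Hspb1 by 1.20. With IgG 4 of this list were higher and 16 lower, against 22.8% and 17.7% of all genes. Of 12 genes of ligand processing and release, 9 were tested in untreated mice, with 2 higher and 1 lower, against the same 23.6% and 22.6%. The protease gene Mmp9 rose by 5.82 on the log2 scale and Ctgf, whose product binds VEGF-A, from 8.42 ± 3.85 FPKM in high flow to 100 ± 94.7 in low flow (SD, n = 3), while the proprotein convertase gene Pcsk5 fell by 2.01. Pcsk5 also fell with IgG and PBS liposomes and rose after anti-GPIba (1.41, adjusted p = 0.0185). None of the named pathway genes was called after anti-Gr1 or clodronate, or between genotypes at either flow, by edgeR.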

How the data were processed

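RNA of carotid flushes and cultured cells was sequenced by the authors. Expected counts, deposited without normalization, had been made per gene with RSEM 1.2.15 on the mouse build mm9. STAR 2.5.1b and TopHat are named as aligners in the submitters' notes and methods. The deposited RPKM of the authors and the gene lengths were taken from the same table. In it 74 of 204 value columns were used and 130 were not used, and 1 row without a gene name was left out.

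Between 8.65% and 29.4% of nonzero counts per library were not whole (tolerance 0.005), and all were rounded. FPKM was computed from the count, the effective length and the library total. Groups were compared with the quasi-likelihood test of edgeR 4.0.16 (R 4.3.3) after filterByExpr and TMM scaling, separately within the untreated, depletion and 7 d sets, with Benjamini-Hochberg adjustment over all genes tested and a call at an adjusted p under 0.05. Standard errors and 95% intervals are those of the fit. DESeq2 1.42.0, other scalings, no count filter, single libraries left out, a replicate block and a second criterion of an absolute log2 fold-change of 1 were alternatives. Tests were run on simulated data first.

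The 9 genes and the pathway lists were chosen with earlier results of these data known. All 9 are described, and from each pathway list up to 3 genes in each direction are named, by the size of their change among the calls in untreated low against high flow. The genes most like a member were sought among those with a mean of at least 1 FPKM. One of the genes this rule names is not reported here. Replicates are pools or animals as labelled, p-values measure the spread between these samples only, and Poisson intervals and floors of 3 counts cover counting error only. The labels do not say whether libraries of different groups that share a number came from the same animals, and numbers were not used as pairs. The letters of the untreated pools only name them. Promoter sequences are those of RefSeq, where the 9 genes matched by symbol to 11 starts.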

Additional observations from a re-analysis of the deposited data

Results flagged for a closer look

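Nrp1 was lower in both low-flow libraries than in both high-flow libraries at 48 hr with IgG (log2 fold-change −0.294) and with PBS liposomes (−0.548), and higher in all 3 low-flow libraries than in both high-flow libraries at 7 d in EC-KO (1.23). None of the 3 passed adjustment over all genes in edgeR with TMM scaling and every library of the set in 1 fit without a block. With DESeq2, Nrp1 passed in EC-KO (adjusted p = 0.00163) and with PBS liposomes (0.0416), with the replicate block in edgeR it passed in EC-KO (0.0350) and with PBS liposomes (0.0280), and with libraries 4 and 5 alone (0.0254) or both EC-KO groups fitted alone (0.0121) in EC-KO. Scaled to the endothelial markers, Nrp1 was called higher in low flow in all 3 (1.21, 0.64 and 2.01), and the directions were no longer opposite. With TMM the fitted log2 fold-changes were opposite, and the lack of overlap between libraries was seen in FPKM. Of all genes tested, 31.4% with IgG and 38.9% with PBS liposomes were likewise lower in every low-flow library. In EC-KO at 7 d, 21.1% were likewise higher. The difference between 48 hr and 7 d was not tested. The sets also differ in genotype and treatment.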

How the results depend on the processing

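In untreated mice, scaling to library totals took the calls between low flow and sham from 4 to 2 (Pgf and Vegfc), and moved all calls between low and high flow from 5195 to 4128 (1044 higher and 3084 lower, from 2652 and 2543). Scaling to the endothelial markers turned 3 values that then passed the test, Nrp1 to 1.21 with IgG and 0.64 with PBS liposomes and Vegfc to 1.13 with PBS liposomes, all below the median of all genes in that scaling (1.58 and 1.23). Other values turned under it without being called, among them Flt4 to 0.49 with IgG and 0.83 with PBS liposomes and Vegfa, Vegfb and Vegfc to −0.17, −0.62 and −0.53 after anti-GPIba. That scaling moved the split of calls from 3053 higher and 2369 lower to 8887 and 227 with IgG, from 2621 and 2071 to 7332 and 304 with PBS liposomes, from 811 and 1405 to 130 and 5751 after anti-GPIba, from 2652 and 2543 to 2877 and 824 in untreated mice, and at 7 d between flows from 128 and 192 to 6529 and 104 in controls and from 47 and 99 to 1124 and 48 in EC-KO. Over all genes DESeq2 called 3683 after anti-GPIba (2216 by edgeR), 462 after clodronate (16), and at 7 d between flows 2207 in controls (320) and 948 in EC-KO (146). Without the count filter edgeR called 92 after clodronate, 654 in controls and 221 in EC-KO. At 7 d in controls, where edgeR called 0 of the family between flows, the endothelial scaling gave 5, DESeq2 3, the replicate block 4 and libraries 4 and 5 alone 4. In EC-KO the 1 call became 0 with the size factors of DESeq2 or with library totals, 2 with both groups fitted alone, and 3 with DESeq2, the replicate block or libraries 4 and 5 alone. The fits on libraries 4 and 5 were chosen after seeing the data. The cause was not tested.

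With 1 library left out at a time, the calls were 3 to 4 in untreated low against high flow, 1 to 3 against sham, 2 to 5 with IgG, 0 to 1 with PBS liposomes, 0 after anti-GPIba, 0 to 3 between genotypes at low flow, 0 to 4 between flows in controls and 0 in EC-KO. The labels tie libraries of different groups by nothing but a number, and with that number as a block all calls at 7 d between flows went from 320 to 2940 in controls and from 146 to 1317 in EC-KO. The block added Pgf (adjusted p = 0.0115), Flt1, Kdr and Vegfa in controls and Pgf (0.0172) and Nrp1 in EC-KO to the calls between flows, and the calls in the family stood at 5 with IgG, 5 with PBS liposomes (Nrp1 added, adjusted p = 0.0280) and 3 after anti-GPIba. No paired analysis was possible in the untreated set because the letters of its pools are tied to no replicate number. The second sequencing run of the untreated pools, and the sum of both runs, were not run, as only 1 column per pool was assigned to a group. Nrp2 and Kdr rested on few counts, and depth limits what can be read from them.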

Other observations

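Among 21 genes of transcription factors known to act on VEGF ligand or receptor genes, a list chosen with earlier results of these data known, 19 were tested in untreated mice, and 1 was higher and 10 were lower in low than in high flow (median log2 fold-change −0.55 against −0.07 over all genes, of which 23.6% were called higher and 22.6% lower). Klf2, the flow-induced endothelial factor, fell by 4.28 on the log2 scale (edgeR, adjusted p = 5e-06), and Epas1, which encodes HIF-2α, fell by 2.29 (adjusted p = 0.000353). Foxc1, Foxc2 and Hey2 fell by 1.96, 1.80 and 1.25. Ets1, an ETS factor of endothelial cells, rose by 1.66 (adjusted p = 0.000783). Hif1a, the other main hypoxia-inducible factor, had 0.37 (adjusted p = 0.176).

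With IgG 1 of these genes was higher and 6 were lower in low flow (22.8% and 17.7% of all genes), and with PBS liposomes also 1 and 6 (19.6% and 15.5%). Klf2 fell in both (by 3.75 on the log2 scale with IgG, adjusted p = 0.00114, and with PBS liposomes at adjusted p = 0.000766). Epas1 fell by 3.02 and 1.87 and Gata2 by 1.65 and 1.69, and Ets1 rose by 1.15 and 1.35. After anti-GPIba 3 were higher than with IgG and 0 lower (6.05% and 10.5% of all genes), namely Gata2 (1.37, adjusted p = 0.0143), Hey2 (1.36, adjusted p = 0.0405) and Foxc1 (1.35, adjusted p = 0.0339), while Klf2 had 0.12 (adjusted p = 0.879). At 7 d Klf2 fell by 3.95 in controls (adjusted p = 0.00396) and by 3.93 in EC-KO (adjusted p = 0.00548), and Epas1 fell by 2.60 in controls (adjusted p = 0.0261) and had −1.79 in EC-KO (adjusted p = 0.0891). No gene of the list was called by edgeR after anti-Gr1 or clodronate or between genotypes at either flow.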
